A study of Mus musculus with 10 samples.

Results

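The guidance genes described here are the Eph receptors and their ephrin ligands, the semaphorins with their plexin and neuropilin receptors, the netrins with Dcc and the Unc5 receptors, and the Slits with the Robo receptors. Their members were matched by gene symbol, under a rule set with earlier results of these data known. That gave 69 of the 57180 genes in the RNA-seq table. These were 14 Eph receptors, 8 ephrins, 20 semaphorins of classes 3 to 7, 9 plexins and 2 neuropilins. The rest were 4 netrins, Dcc with 4 Unc5 receptors, 3 Slits and 4 Robos. The table's own pathway annotation gives the KEGG axon guidance term to 64 of the 69. In CUT&Tag, 297 of 69418 regions were assigned by the authors to 63 of these genes. The cells were NSPCs, neural stem and progenitor cells purified from the brain of mice. They carried either the wild-type genotype (WT) or the genotype labelled Mina53-KO (KO), and neither group was treated. Mina53, now named Riox2, is a JmjC-domain oxygenase of the nucleus and nucleolus. RNA-seq was made from 3 WT and 3 KO libraries, and CUT&Tag, in which an antibody directs a transposase to a chromatin target, from 2 WT and 2 KO libraries. The sources used here give no strain, age, knockout allele, pooling of mice or CUT&Tag target. Separate mice or cultures behind the libraries are not stated either, so a p-value speaks only of the spread among libraries, which may be technical.

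These 4 ligand systems are best known for steering growing axons, and in the developing and adult brain they also act on the position, proliferation and migration of neural progenitors. Ephrins are held on the membrane and bind Eph receptor tyrosine kinases on a neighbouring cell, with signals passing into both cells. Secreted class 3 semaphorins bind neuropilins, which have almost no signalling domain of their own and pair with class A plexins, while most membrane-bound semaphorins bind plexins directly. Netrins attract through Dcc and repel through Unc5 receptors, and Slits repel through Robo receptors.

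The RNA libraries held 19922983 to 25939348 counts. Riox2 (ENSMUSG00000022724), the targeted gene, was at 20.0, 17.2 and 18.5 CPM (counts relative to the library total, scaled by the trimmed mean of M-values) in WT 1, WT 2 and WT 3 and at 3.26, 3.78 and 3.70 CPM in KO 1, KO 2 and KO 3, so the groups did not overlap. Of 17 neural stem and radial glia markers, 17 passed the count filter, and their summed level was 10516 to 10986 CPM in WT and 12195 to 12328 CPM in KO. Of the 17, 2 were called higher (1.77% of all genes tested) and 2 lower (1.66%) in KO, with a median log2 fold change of 0.003. The share of counts from mitochondrial genes was low in WT 1 (2.31%), KO 1 (2.68%) and KO 2 (2.65%) and high in WT 2 (5.71%), WT 3 (3.52%) and KO 3 (4.64%). That division cuts across the genotypes, and its values stand beside the results it touches.

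Levels were compared between genes per transcript length, as TPM, which divide counts by gene length and scale each library to the same sum, computed from the deposited counts and gene lengths. Over the 6 libraries, 22 of the 69 genes had a mean of at least 10 TPM, 30 lay between 1 and 10 TPM and 17 were under 1 TPM. Plxnb2, a receptor for class 4 semaphorins that progenitors of the developing brain are known to express, was highest in its mean, at 174 TPM (123 to 204 TPM over the libraries). Ntn1, the founding vertebrate netrin, followed at 90.7 TPM (65.9 to 106). The transmembrane semaphorins Sema6d, at 68.3 TPM (63.2 to 76.6), and Sema6a, at 68.0 TPM (59.2 to 74.3), did not differ from each other beyond their spread. Sema4b (39.3 TPM), Plxna1 (35.8 TPM), Plxnb1 (34.3 TPM), Sema5b (32.6 TPM) and Ntn4 (30.5 TPM) came next, below the range of Sema6a, and each of these 5 overlapped in range with the next in order.

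Receptors and ligands of the semaphorin system made up most of the guidance RNA. In WT, the plexins summed to 289 ± 63.9 TPM (SD, n = 3) and the semaphorins to 270 ± 26.0 TPM, which is 32.5% and 30.8% of the sum over all 69 genes. Of the plexin sum, Plxnb2 alone made up 168 ± 40.9 TPM. A sum also grows with the number of genes matched, here 9 plexins and 20 semaphorins. The netrins contributed 122 ± 23.6 TPM, the Eph receptors 76.2 ± 10.8 TPM, the ephrins 42.7 ± 7.74 TPM and the Robos 39.0 ± 5.32 TPM. The neuropilins (23.2 ± 1.17 TPM), Dcc with the Unc5 receptors (15.2 ± 2.64 TPM) and the Slits (6.47 ± 1.76 TPM) were lowest. In KO, the plexins summed to 321 ± 38.7 TPM, the semaphorins to 291 ± 9.15 TPM, the netrins to 127 ± 12.4 TPM, the Eph receptors to 85.7 ± 5.37 TPM, the ephrins to 51.8 ± 8.63 TPM, the Robos to 35.2 ± 3.92 TPM and the Slits to 5.27 ± 0.88 TPM. The groups overlapped in each of these sums. In neuropilins the 3 KO libraries (17.7, 18.6 and 19.1 TPM) lay below the 3 WT libraries (24.2, 21.9 and 23.3 TPM), and in Dcc with the Unc5 receptors the KO libraries (24.5, 22.4 and 19.8 TPM) lay above the WT libraries (17.4, 12.3 and 15.9 TPM).

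**Figure D1:**
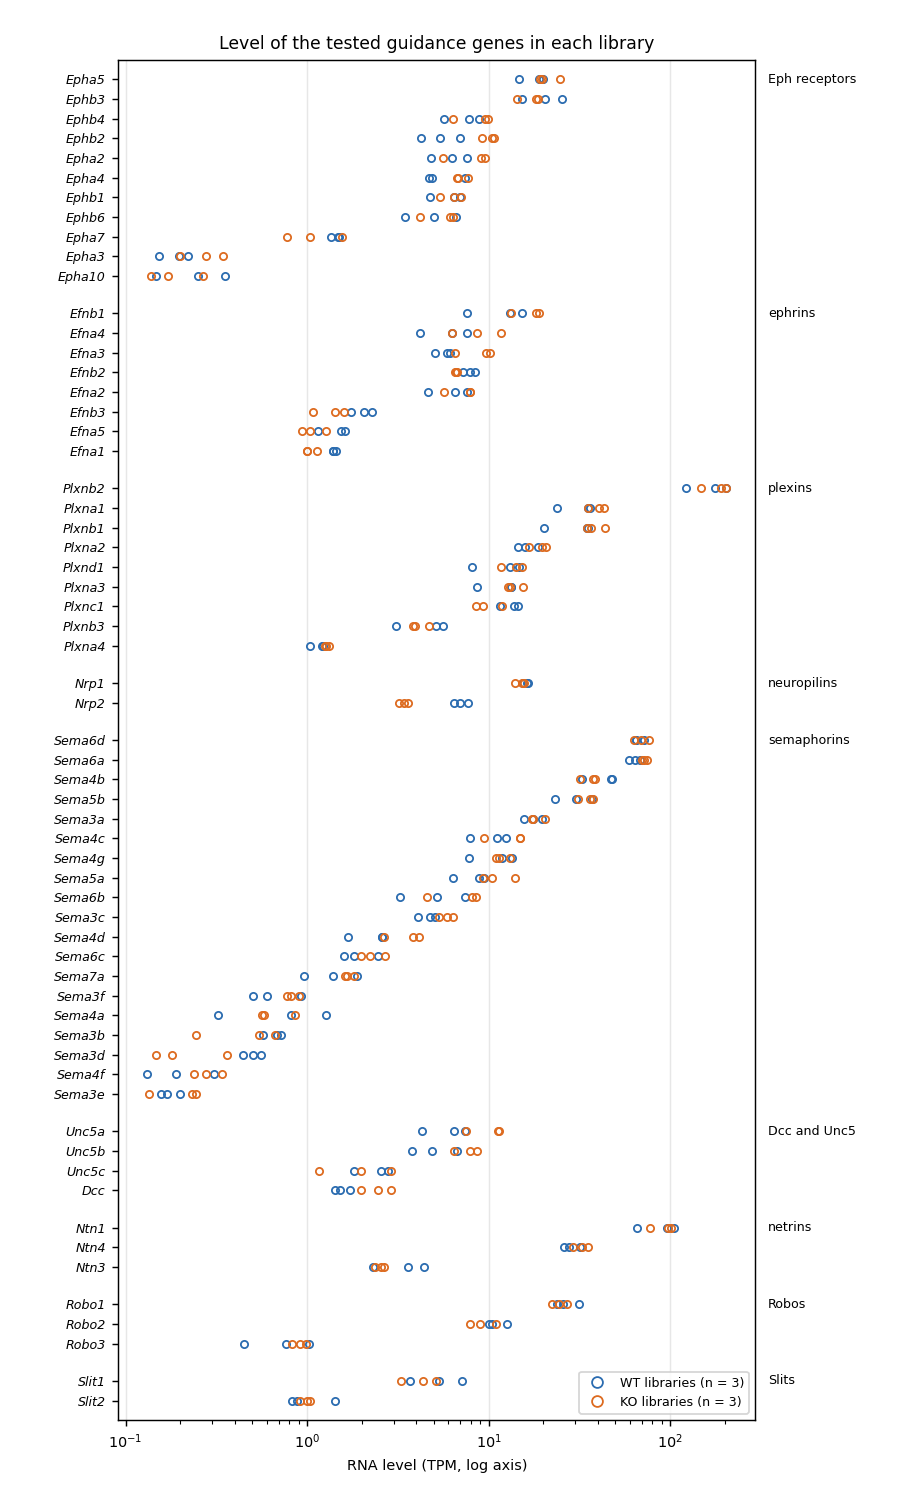
RNA level in TPM (log axis) of the 61 guidance genes that passed the count filter, by family and in order of mean level; each circle is 1 library, blue for WT and orange for KO. Plxnb2 is highest at a mean of 174 TPM, and Nrp2 shows the 3 KO libraries apart from the 3 WT libraries.

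Levels also differed within families. Among the Eph receptors, Epha5 (19.6 TPM, 14.7 to 24.7) and Ephb3 (18.8 TPM, 14.3 to 25.5) led and did not differ beyond their spread, 6 receptors from Ephb4 to Ephb6 lay between 8.03 and 5.28 TPM, and Epha3 and Epha10 were near 0.232 and 0.221 TPM. The ephrin Efnb1, a transmembrane ligand of the EphB receptors, was highest of its family at 14.4 TPM, and Efna1 was lowest at 1.22 TPM. Sema3a, the prototype repellent of class 3, was the class 3 semaphorin with the highest mean, at 18.0 TPM (15.6 to 20.5), whereas Sema3d, Sema3e and Sema3g were under 0.4 TPM. For Slits, the order of the means was Slit1 at 4.82 TPM, Slit2 at 1.01 TPM and Slit3 at 0.0345 TPM. For their receptors it was Robo1 at 25.8 TPM, Robo2 at 10.2 TPM, Robo3 at 0.829 TPM and Robo4, a receptor known from endothelium, at 0.252 TPM. Within this gene set, the order of ligand and receptor means differed between the netrin and Slit systems. The ligand Ntn1 at 90.7 TPM stood above the matched receptors Unc5a (8.05 TPM), Unc5b (6.38 TPM), Unc5c (2.20 TPM) and Dcc (2.00 TPM). Robo1 and Robo2, in contrast, stood above the 3 Slits.

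Of the 69 genes, 61 passed the filter on low counts and were tested, and 8 did not: Epha1, Epha6, Epha8, Ntn5, Robo4, Sema3g, Slit3 and Unc5d, with 0 to 21 reads in a library. By edgeR's quasi-likelihood test with Benjamini-Hochberg adjustment over 15298 genes, 2 of the 61 tested guidance genes passed an adjusted p of 0.05 and are termed called, against 3.43% of all genes tested. Nrp2 was lower in KO (all genes called lower, 1.66%) and Ephb2 was higher (all genes called higher, 1.77%). The share of the tested guidance genes that was called, 3.28%, lay close to the share of all genes. At an unadjusted p under 0.05 there were 10 of 61, against 13.7% of all genes tested. The 3 KO libraries lay wholly above the WT libraries in 7 of the 61 genes (9.69% of all genes tested) and wholly below them in 6 (9.26%). The 7 were Ephb2, Unc5a, Dcc, Efna3, Sema4d, Sema6a and Plxna4, and the 6 were Nrp2, Nrp1, Sema3d and the ephrins Efnb3, Efnb2 and Efna1. The median log2 fold change, KO over WT, was 0.17 in the tested guidance genes and 0.01 in all genes tested, with 40 positive and 21 negative values. The libraries of low mitochondrial share were WT 1, KO 1 and KO 2, and the bearing of this imbalance on the median was not tested. For 50 of the 61 the log2 fold change was smaller than 0.5 in size, at a median standard error of 0.20. In bulk RNA, a change in the number of cells of a type and a change in RNA per cell cannot be told apart.

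**Figure D2:**
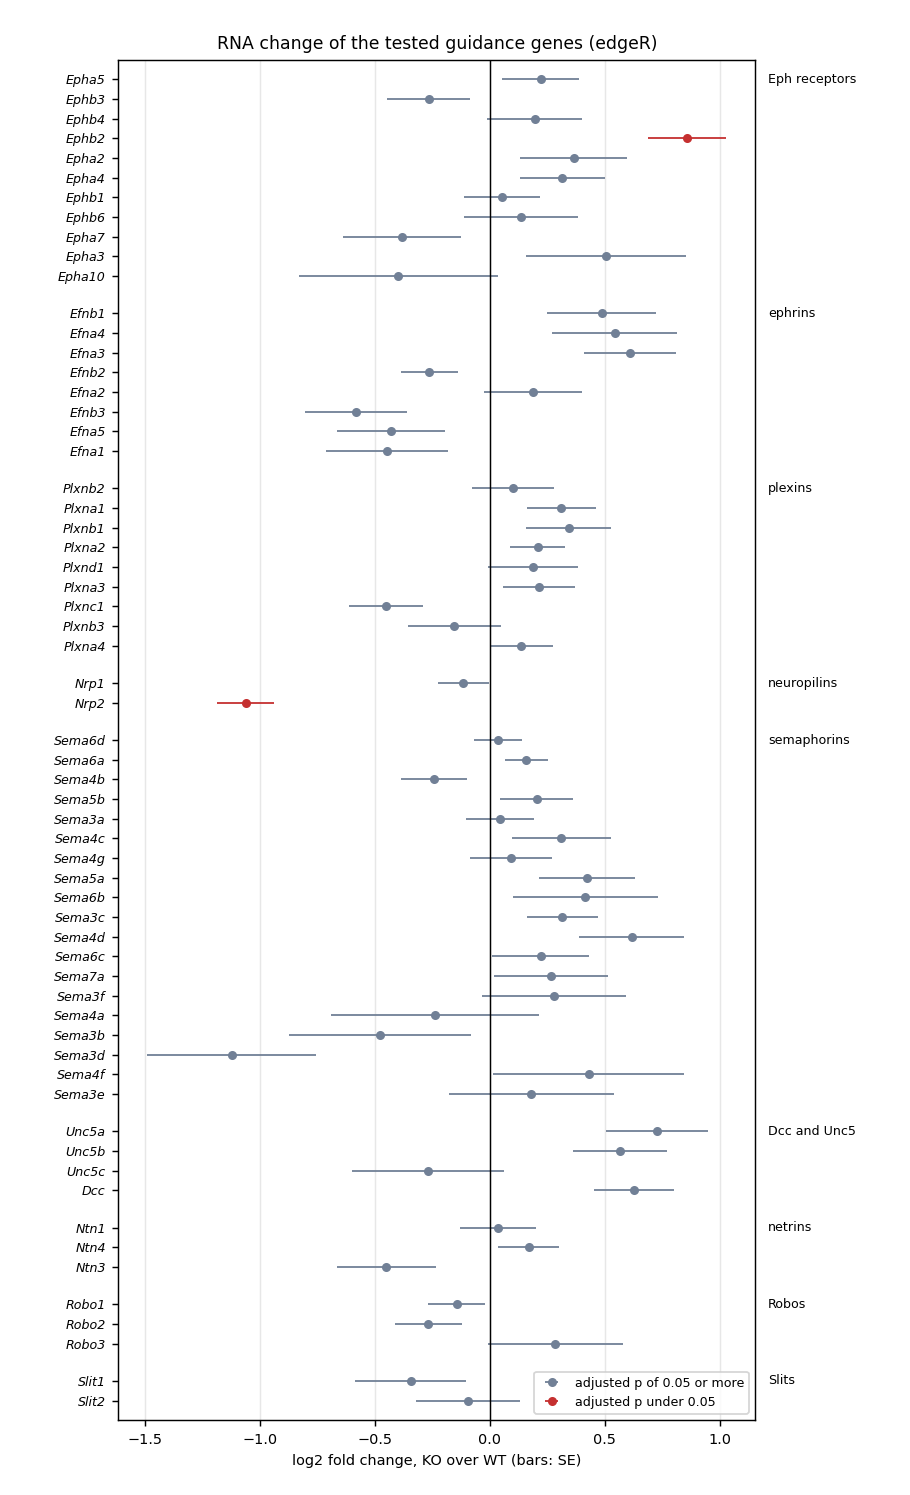
Log2 fold change of RNA, KO over WT, for the 61 tested guidance genes by family; points are edgeR estimates, bars are 1 standard error and red marks an adjusted p under 0.05. Only Nrp2 (-1.06) and Ephb2 (0.86) are red, and 50 of the 61 points lie within 0.5 of zero.

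In the semaphorin system, Nrp2 (ENSMUSG00000025969), the neuropilin that binds Sema3f and also VEGF-C, fell in KO. It was at 21.5, 19.6 and 19.1 CPM in WT 1, WT 2 and WT 3 and at 10.0, 9.19 and 9.61 CPM in KO 1, KO 2 and KO 3. The 3 KO libraries lay close together and well below every WT library. The log2 fold change was -1.06 ± 0.12 (SE), a level 2.09-fold lower in KO, with an adjusted p of 0.00399 by edgeR, and the call held without each library in turn, at an adjusted p of 0.00625 to 0.035. Its paralogue Nrp1, which binds Sema3a and VEGF-A, was at 26.0, 26.6 and 25.3 CPM in WT and 22.1, 24.9 and 24.9 CPM in KO. The KO libraries again lay below the WT libraries, but the log2 fold change of -0.12 ± 0.11 did not pass the test (adjusted p = 0.816 by edgeR). Per length, Nrp1 stood at a mean of 15.6 TPM and Nrp2 at 5.23 TPM.

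No plexin passed the test in this fit. Plxnb2, at 569, 377 and 487 CPM in WT and 570, 550 and 416 CPM in KO, had overlapping groups and a log2 fold change of 0.10 ± 0.18. The smallest p among plexins belonged to Plxnc1, the receptor of Sema7a, at 36.7, 48.3 and 45.9 CPM in WT and 29.9, 27.9 and 38.0 CPM in KO. Its groups overlapped, since WT 1 was below KO 3, and the log2 fold change was -0.45 ± 0.16 (adjusted p = 0.234, edgeR). Of the 9 plexins, 7 had positive and 2 had negative log2 fold changes, from -0.45 to 0.34.

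Among the semaphorins, none of the 19 tested was called, with a median log2 fold change of 0.21. Sema6d, the semaphorin with the highest mean TPM, was at 177, 193 and 191 CPM in WT and 187, 177 and 210 CPM in KO, with overlapping groups and a log2 fold change of 0.04 ± 0.11. Sema3d, a secreted class 3 semaphorin of low level, had the largest shift in size, -1.12 ± 0.37, and the smallest p of the family (adjusted p = 0.184, edgeR). It was at 1.22, 1.52 and 1.50 CPM in WT and 0.494, 0.416 and 1.01 CPM in KO, so the groups did not overlap, but KO 3 lay near WT 1. Sema4d, a membrane ligand of Plxnb1, was at 5.02, 3.54 and 4.94 CPM in WT and 8.01, 7.61 and 5.14 CPM in KO. All KO libraries were above the WT libraries, KO 3 by a small margin, and the log2 fold change was 0.62 ± 0.23 (adjusted p = 0.257, edgeR). Sema3f, the class 3 ligand of Nrp2, had a mean of 0.755 TPM and a log2 fold change of 0.28 ± 0.31.

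In the ephrin system, Ephb2 (ENSMUSG00000028664), a receptor tyrosine kinase for B-class ephrins that is known from synapses and from the positioning of progenitors, rose in KO. It was at 14.6, 9.78 and 11.2 CPM in WT 1, WT 2 and WT 3 and at 22.5, 22.6 and 19.4 CPM in KO 1, KO 2 and KO 3. The lowest KO library stood above the highest WT library. The log2 fold change was 0.86 ± 0.17, a level 1.81-fold higher, with an adjusted p of 0.0356 by edgeR. The call was lost without WT 2 (adjusted p = 0.0945), WT 3 (0.202), KO 1 (0.157) or KO 2 (0.14) in the same edgeR fit, with log2 fold changes of 0.73 to 0.82, and was kept without WT 1 (adjusted p = 0.0097) or KO 3 (0.0292).

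The other 10 tested Eph receptors were not called, and their log2 fold changes lay between -0.40 (Epha10) and 0.51 (Epha3). Epha5, a receptor of A-class ephrins with the highest mean TPM of the family, was at 30.0, 42.6 and 40.3 CPM in WT and 39.3, 41.3 and 51.0 CPM in KO, with overlapping groups and a log2 fold change of 0.22 ± 0.17. Ephb3, the EphB receptor with the highest mean TPM, was at 46.7, 30.8 and 36.8 CPM in WT and 34.2, 34.6 and 26.3 CPM in KO, and its shift of -0.27 ± 0.18 ran against that of Ephb2 without passing the test.

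No ephrin was called among 8 tested, of which 4 had positive and 4 negative log2 fold changes. Efna3, a GPI-anchored ligand of EphA receptors, had the smallest p of the family. It was at 6.37, 5.71 and 5.98 CPM in WT and 9.94, 10.9 and 6.77 CPM in KO. The groups did not overlap, with KO 3 close to the WT libraries, and the log2 fold change was 0.61 ± 0.20 (adjusted p = 0.184, edgeR). Efnb1, the ephrin with the highest mean TPM, was at 21.9, 11.8 and 18.4 CPM in WT and 27.1, 26.8 and 19.2 CPM in KO, with overlap between KO 3 and WT 1 and a log2 fold change of 0.49 ± 0.24. The remaining B-class ligands had negative values, Efnb2 with -0.26 ± 0.12 and Efnb3 with -0.58 ± 0.22 (adjusted p = 0.425 and 0.276, edgeR), and in both the KO libraries lay below the WT libraries.

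In the netrin system, no gene was called, with Ntn1 near zero and Dcc, Unc5a and Unc5b at positive values. Ntn1 was at 265, 181 and 239 CPM in WT and 253, 252 and 196 CPM in KO, with a log2 fold change of 0.03 ± 0.17 and groups that overlapped. Ntn3 had the smallest p of the netrins, at 9.71, 5.59 and 7.79 CPM in WT and 5.83, 5.82 and 5.25 CPM in KO, a log2 fold change of -0.45 ± 0.21 (adjusted p = 0.428, edgeR). Dcc, the receptor for attraction to netrin, was at 6.42, 7.48 and 7.68 CPM in WT and 11.0, 9.19 and 13.2 CPM in KO. Every KO library was above every WT library, and the log2 fold change of 0.63 ± 0.17 had the smallest adjusted p among the guidance genes not called, 0.114 by edgeR.

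Unc5a, a receptor for repulsion from netrin, was at 12.9, 8.26 and 11.0 CPM in WT and 19.9, 20.4 and 13.2 CPM in KO. KO 3 lay just above WT 1, so the groups did not overlap, and the log2 fold change was 0.73 ± 0.22 (adjusted p = 0.155, edgeR). Unc5b, of the same receptor family, was at 17.3, 10.6 and 12.3 CPM in WT and 22.0, 20.9 and 16.6 CPM in KO, with KO 3 below WT 1 and a log2 fold change of 0.57 ± 0.20 (adjusted p = 0.239, edgeR). Unc5c had a negative value of -0.27 ± 0.33.

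In the Slit system, no gene was called. Slit1, the Slit with the highest mean TPM, was at 15.7, 8.88 and 11.6 CPM in WT and 11.3, 9.93 and 7.36 CPM in KO, a log2 fold change of -0.34 ± 0.24 with overlapping groups. Robo1, the receptor with the highest mean TPM, was at 74.3, 75.3 and 89.4 CPM in WT and 70.7, 66.5 and 79.1 CPM in KO (log2 fold change -0.14 ± 0.12). Robo2 had the smallest p of the Robos, at 35.6, 40.4 and 43.7 CPM in WT and 31.7, 28.8 and 38.9 CPM in KO (log2 fold change -0.27 ± 0.15, adjusted p = 0.532, edgeR). In both Robos KO 3 reached into the range of the WT libraries.

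Separation by mitochondrial share was about as frequent in the guidance genes as in all genes tested. In 27 of the 61 tested genes (44.3%), the 3 libraries of low share did not overlap the 3 of high share, against 41.8% of all genes tested. In 20 of the 27 the libraries of low share were above (21.3% of all genes tested), Ntn1 and Plxnb2 among them, and in 7 they were below (20.5%), including Robo1, Robo2, Plxnc1 and Sema6d. Neither Nrp2 nor Ephb2 was among the 27. Within the libraries of low share, Nrp2 was at 21.5 CPM in WT 1 against 10.0 and 9.19 CPM in KO 1 and KO 2, and within those of high share at 19.6 and 19.1 CPM in WT 2 and WT 3 against 9.61 CPM in KO 3. Ephb2 was at 14.6 CPM in WT 1 against 22.5 and 22.6 CPM in KO 1 and KO 2 of low share. Within the high share it was at 9.78 and 11.2 CPM in WT 2 and WT 3 against 19.4 CPM in KO 3. Neither gene overlapped between the genotypes over all libraries, so its separation within each class follows from that and is no separate test.

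With the class of mitochondrial share as a covariate in the edgeR fit, 10 of the 61 tested guidance genes were called (16.4%), against 11.1% of all genes tested. The 6 called higher, where all genes gave 5.9%, were Ephb2, Dcc, Sema5a, Unc5a, Unc5b and Epha5. The 4 called lower, where all genes gave 5.18%, were Nrp2, Slit1, Ephb3 and Plxnc1. Sema5a, a transmembrane semaphorin, had a log2 fold change of 0.61 (adjusted p = 0.00145, edgeR) in this fit. Within the low class it was at 30.0 CPM in WT 1 against 49.3 and 45.5 CPM in KO 1 and KO 2, and within the high class at 48.8 and 41.3 CPM in WT 2 and WT 3 against 66.4 CPM in KO 3, so the genotypes were apart in each class while WT 2 and KO 2 overlapped across them. The netrin receptors gave log2 fold changes of 0.73 (Dcc, adjusted p = 0.00349), 0.54 (Unc5a, adjusted p = 0.018) and 0.42 (Unc5b, adjusted p = 0.0269) by edgeR. Slit1 gave -0.53 (adjusted p = 0.0283) and Ephb3 -0.40 (adjusted p = 0.0183) in the same edgeR fit. DESeq2 without the covariate called 4 of the 61, Nrp2, Ephb2, Unc5a (adjusted p = 0.041) and Dcc (adjusted p = 0.0394), against 6.26% of all genes. Of the 4, 3 were higher (3.15% of all genes) and 1 was lower (3.11%). Without KO 3, edgeR called Unc5a (adjusted p = 0.0395), Efna3 (0.0407) and Sema3d (0.047) beside Nrp2 and Ephb2.

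**Figure D3:**
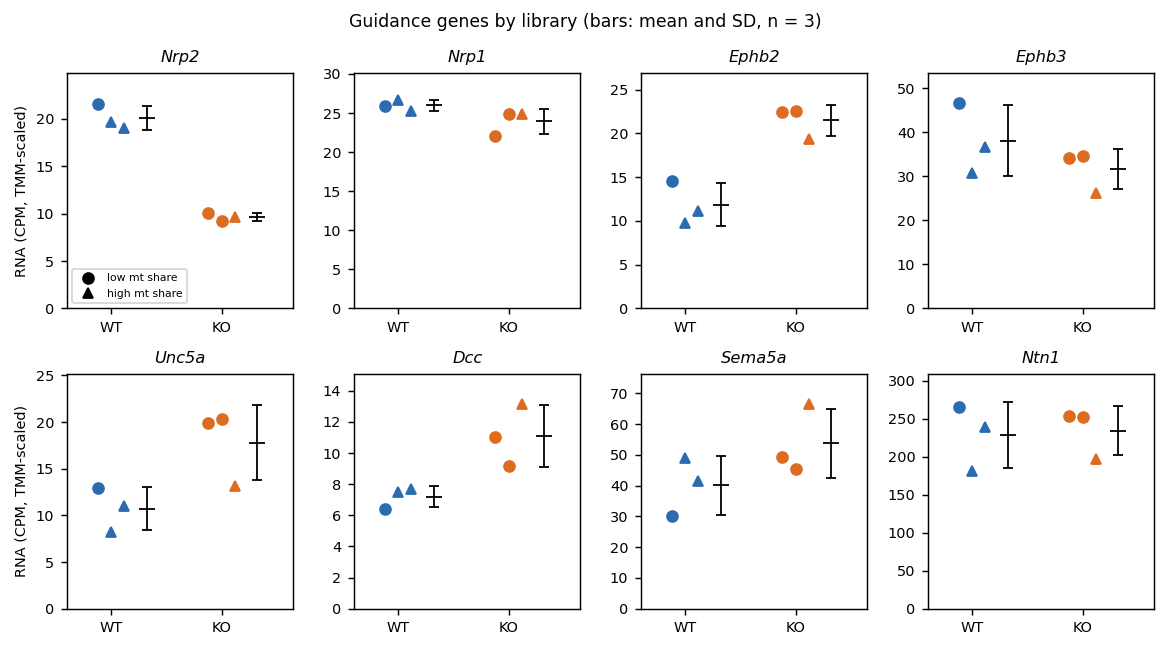
RNA of 8 guidance genes in CPM by library; circles are libraries of low and triangles of high mitochondrial share, blue for WT and orange for KO, and bars are the mean and SD of 3 libraries. Nrp2 and Ephb2 separate the genotypes over all libraries, Nrp1 differs by a log2 fold change of -0.12, and in Ntn1 the circles lie above the triangles in both genotypes.

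To set the called genes beside their sequence, the 250 bases before the RefSeq start (GRCm38.p6) are shown for Nrp2, which fell, for its paralogue Nrp1, and for Ephb2, which rose. Capitals mark GGGCGG or its reverse complement CCGCCC, the GC box bound by the Sp family of factors. The Nrp2 window is chr1:62703067-62703316 on the plus strand, the Nrp1 window chr8:128358823-128359072 on the plus strand and the Ephb2 window chr4:136836013-136836262 on the minus strand.
Nrp2: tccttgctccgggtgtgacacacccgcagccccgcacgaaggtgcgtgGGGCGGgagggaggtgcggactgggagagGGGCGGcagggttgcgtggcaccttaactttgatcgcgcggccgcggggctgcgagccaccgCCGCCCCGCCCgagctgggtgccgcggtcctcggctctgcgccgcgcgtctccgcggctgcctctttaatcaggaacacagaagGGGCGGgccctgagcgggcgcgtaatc
Nrp1: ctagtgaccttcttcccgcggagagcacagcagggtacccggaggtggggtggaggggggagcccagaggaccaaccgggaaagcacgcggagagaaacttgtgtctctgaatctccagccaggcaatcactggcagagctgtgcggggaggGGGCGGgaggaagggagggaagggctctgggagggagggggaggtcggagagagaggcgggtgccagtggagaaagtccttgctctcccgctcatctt
Ephb2: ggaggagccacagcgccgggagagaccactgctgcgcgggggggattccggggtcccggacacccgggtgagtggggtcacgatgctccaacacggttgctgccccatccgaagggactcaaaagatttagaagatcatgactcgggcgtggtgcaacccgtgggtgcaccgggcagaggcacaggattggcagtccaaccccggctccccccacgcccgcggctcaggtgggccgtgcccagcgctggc

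The Nrp2 window held 5 GC boxes and 32 CpG, counting overlapping matches, the Nrp1 window 1 GC box and 11 CpG, and the Ephb2 window no GC box, 1 CCAAT box (CCAAT or ATTGG) and 20 CpG. RefSeq windows were found for 59 of the 69 genes, 75 windows in all because some genes have several starts. A GC box stood in 70.7% of the 75 windows and in 32.7% of the 32851 windows of all genes. A CCAAT box stood in 26.7% against 33.8%, and TATAAA or TTTATA in 2.7% against 12.4%. The guidance windows had a median of 15 CpG against 6, and a median GC content of 64.4% against 52.4%. These are matches of letters on both strands and not measured binding sites.

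Other genes of the pathway were counted from 2 lists. Among 31 tested of 34 further guidance ligands, co-receptors and adhesion partners, none was called higher (1.77% of all genes tested) and 4 were called lower (1.66%), with a median log2 fold change of -0.07. Draxin, a secreted antagonist that binds Dcc and netrin, was at 31.7, 19.6 and 33.6 CPM in WT and 11.7, 8.19 and 10.7 CPM in KO, a log2 fold change of -1.48 ± 0.23 (adjusted p = 0.0138, edgeR). Chl1, an L1-family adhesion molecule that associates with neuropilins, was at 266, 393 and 346 CPM in WT and 130, 127 and 166 CPM in KO, with -1.25 ± 0.17 (adjusted p = 0.00798, edgeR). In both genes every KO library was below every WT library. Ptprd, a receptor phosphatase, fell from 31.4 ± 6.59 to 12.9 ± 2.97 CPM (SD, n = 3) and Cntn1, a contactin of the neuronal surface, from 311 ± 14.2 to 206 ± 15.3 CPM.

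Among 63 tested of 65 intracellular effectors of guidance receptors, 2 were called higher (1.77% of all genes tested) and 1 lower (1.66%), with a median log2 fold change of 0.02. Dpysl5, a collapsin response mediator protein (CRMP) of the family that relays semaphorin signals to the cytoskeleton, was at 7.34, 6.58 and 5.44 CPM in WT and 13.6, 15.6 and 13.3 CPM in KO, with 1.13 ± 0.16 (adjusted p = 0.00921, edgeR). Its relative Dpysl3 rose from 191 ± 9.60 to 264 ± 17.5 CPM (SD, n = 3), with an adjusted p of 0.0473 by edgeR, and was not called with RLE size factors (adjusted p = 0.052) or with no count filter (adjusted p = 0.0693). Ablim1, an actin-binding protein, was at 45.1, 42.6 and 49.6 CPM in WT and 24.1, 23.6 and 25.5 CPM in KO, with -0.91 ± 0.11 (adjusted p = 0.00505, edgeR). Of these 7, Ablim1 alone was called without each library in turn. Chl1 was not called without WT 3 or KO 1, Dpysl5 and Draxin without WT 3 or KO 2, Cntn1 without WT 3, KO 1 or KO 2, Ptprd without WT 2, WT 3, KO 1 or KO 2, and Dpysl3 without any of the 6.

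Markers of other stages and cell types moved beside these genes. For each count below, the share of all genes tested was 1.77% called higher and 1.66% called lower. The summed level of the 12 intermediate progenitor and neuroblast markers was 386 to 434 CPM in WT and 502 to 547 CPM in KO, with 5 of 9 tested called higher, among them Neurod1 and Dlx1, and none lower. The 16 neuron markers summed to 698 to 880 CPM in WT and 965 to 1165 CPM in KO, with 3 of 12 tested called higher (Nefl, Nefm and Gap43). The 10 astrocyte markers summed to 3158 to 3903 CPM in WT and 2451 to 2804 CPM in KO, with 4 called lower (S100b, Sparcl1, Agt and Aldoc). The 9 endothelial and pericyte markers summed to 23.6 to 31.9 CPM in WT and 55.6 to 63.1 CPM in KO, of which Flt1 made up 25.9 ± 4.02 and 56.4 ± 4.12 CPM (SD, n = 3), while Cdh5 and Cldn5 had 0 counts in the 6 libraries. The 10 fibroblast and meningeal markers summed to 33.4 to 40.2 CPM in WT and 21.0 to 23.8 CPM in KO, with 1 called higher and 2 lower. The 8 microglia markers summed to under 3 CPM in each library, and Cx3cr1 had 0 counts in all 6. The sums of oligodendrocyte lineage, ependymal and erythroid markers were 2224 to 3661, 23.1 to 54.4 and 0.247 to 0.506 CPM over the libraries, with 1 gene called, Myrf, which was higher. The part of these cell types in the changes of Nrp2, Ephb2 and the other guidance genes was not tested.

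In CUT&Tag, the 4 libraries held 2913959 to 4038765 reads in regions. The 297 regions were spread over 63 genes as 1 to 22 per gene, with a median of 3: Sema6d had 22, Robo1 19, Ephb2 16, Sema5a 15 and Slit1 12. Efnb3, Epha6, Ntn3, Plxnb3, Robo4 and Sema4c had none. By the authors' annotation (GRCm39), 46.1% of the regions lay in introns, 32.7% within the promoter window of 3 kb, 15.2% were intergenic and 2.69% exonic. Over all 69418 regions these shares were 35.9%, 30.5%, 28.0% and 2.66%. The authors had called a peak in each of the 4 libraries for 5.39% of the guidance regions and 10.0% of all regions. The mean signal was 3.14 to 56.7 CPM of reads in regions, with a median of 10.9 CPM against 10.7 CPM over all regions.

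A region within 1 kb of an annotated start was present at 42 of the 69 genes. Among the genes tested in RNA-seq, 38 of the 61 guidance genes (62.3%) had one, against 52.1% of all tested genes. Their median RNA level in WT was 6.14 TPM, and that of the other 23 was 5.38 TPM. Across 63 genes, the summed WT CUT&Tag signal and the WT RNA level had a Spearman correlation of 0.333, and across the 42 genes with a region within 1 kb the strongest such region gave 0.201. Genes are not independent replicates, and the summed signal grows with the number of regions.

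By edgeR, 0 of the 297 regions were called between KO and WT, against 0.00722% of all regions tested (5 of 69209). The smallest adjusted p was 0.721, and 18 regions (6.06%) had an unadjusted p under 0.05, against 5.35% of all regions, with 6 higher (1.7% of all regions) and 12 lower (3.65%) in KO. DESeq2 also called none, with 8 at an unadjusted p under 0.05. The median log2 fold change was 0.03 in the guidance regions and 0.01 in all regions. No spike-in is named in the sources used here, so a gain or loss common to all regions could not be measured.

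**Figure D4:**
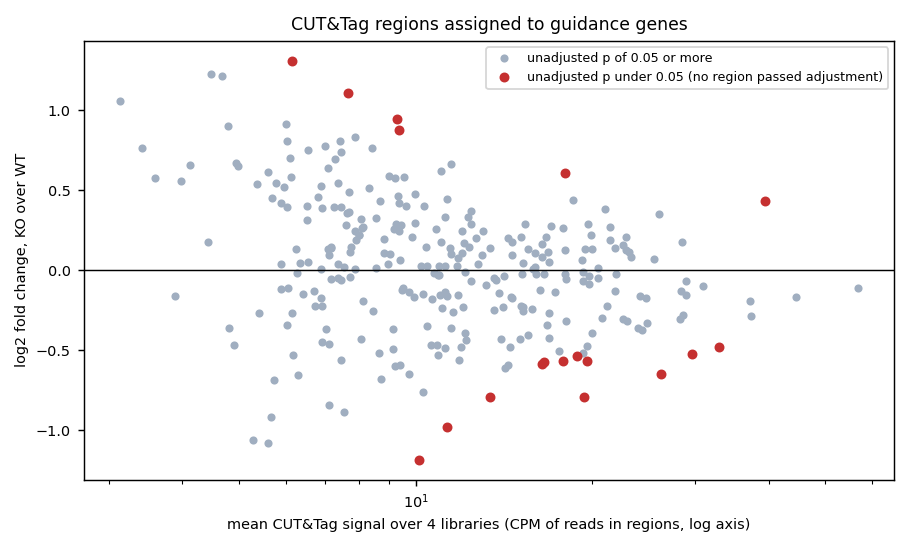
Log2 fold change of CUT&Tag signal, KO over WT, against the mean signal in CPM of reads in regions (log axis) for the 297 regions of guidance genes; red points have an unadjusted p under 0.05. Of these 18, 6 lie above and 12 below zero, and none passed adjustment.

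For each direction, the 5 genes whose regions had the smallest p are given as values. Lower in KO was a region at -600 bases (upstream) of an annotated Sema3f start (chromosome 9, 107562596 to 107562806), with 24.9 and 24.2 CPM in WT 1 and WT 2 and 13.9 and 14.5 CPM in KO 1 and KO 2 (log2 fold change -0.79 ± 0.27, adjusted p = 0.721, edgeR). The region near Efnb2 (chromosome 8, 8708916 to 8709138), 2101 bases after a start, was at 13.6 and 14.5 CPM in WT and 5.85 and 6.52 CPM in KO. The region over an annotated start of Sema4b, a class 4 semaphorin (chromosome 7, 79847734 to 79848365), was at 26.8 and 37.4 CPM in WT and 22.0 and 18.7 CPM in KO. In each of the 3, picked for a small p, both KO libraries were below both WT libraries. The groups did not overlap, in either direction, in 102 of the 297 guidance regions. With 2 libraries in each group, such separation arises often by order alone. The share over all regions was not counted, so nothing is concluded from this number. A region in exon 26 of 38 of Plxnb1 (chromosome 9, 108940975 to 108941226) had means of 15.0 ± 6.63 and 7.56 ± 1.04 CPM (SD, n = 2), and one 603 bases after the start of Epha10 (chromosome 4, 124775295 to 124775671) 17.0 ± 0.605 and 9.76 ± 2.07 CPM. Distances are the authors', to the nearest annotated transcript start, which can be that of a short internal transcript.

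Higher in KO, with the smallest p in that direction, was an intergenic region at -3783 bases of a Sema7a start (chromosome 9, 57843042 to 57843612), at 31.0 and 36.0 CPM in WT and 40.5 and 50.4 CPM in KO, with a peak in all 4 libraries. A region in intron 2 of 4 of a Sema3a transcript (chromosome 5, 13325629 to 13325946) was at 4.85 and 4.84 CPM in WT and 10.0 and 11.0 CPM in KO. A region 99 bases after a Sema4d start (chromosome 13, 51858682 to 51858908) was at 6.15 and 6.57 CPM in WT and 13.2 and 11.3 CPM in KO, from 19 to 54 reads per library. A region in intron 4 of 35 of Slit3 (chromosome 11, 35342576 to 35342805) was at 5.17 and 7.96 CPM in WT and 9.76 and 14.5 CPM in KO. None of these passed adjustment (smallest adjusted p of the 5 higher regions 0.903, edgeR). At the other named regions of both directions, the authors' peaks were in fewer libraries than at Sema7a. Peaks were in 3 libraries for Sema4b and in 2 for Sema3f, Sema3a and the Ephb2 region described below. For Efnb2, Plxnb1, Epha10, Sema4d and Slit3, the peak was in 1 library. In the authors' deposited table, the smallest p among the guidance regions was 0.00518, at Ephb3, with a q-value of 1.

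The 2 genes called in RNA were followed through their regions. Nrp2 had 2: one at -1898 bases of a start (chromosome 1, 62740277 to 62740546), at 10.0 and 19.0 CPM in WT and 10.7 and 15.7 CPM in KO, and one 2589 bases after another annotated start (62745450 to 62746133), at 36.5 and 42.6 CPM in WT and 32.9 and 36.5 CPM in KO. Their log2 fold changes of -0.14 ± 0.32 and -0.19 ± 0.20 were within the error, and summed over both regions the gene gave -0.13 ± 0.17. Over the 16 regions of Ephb2, summed signal was 452 and 473 CPM in WT and 477 and 463 CPM in KO, a log2 fold change of 0.03 ± 0.08. Only 1 of the 16 had an unadjusted p under 0.05, in intron 1 of 15 (chromosome 4, 136526396 to 136526725), at 15.2 and 13.1 CPM in WT and 17.6 and 26.1 CPM in KO (log2 fold change 0.61 ± 0.28, adjusted p = 0.911, edgeR).

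**Figure D5:**
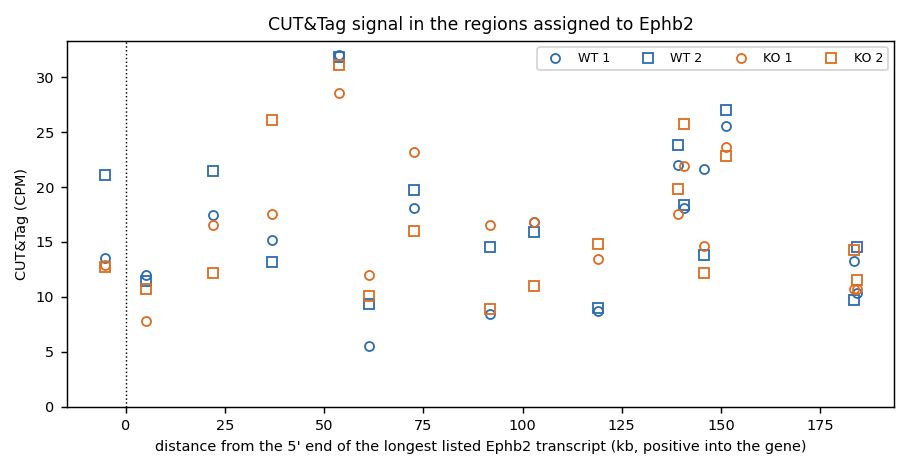
CUT&Tag signal in CPM of reads in regions for the 16 regions assigned to Ephb2, by distance in kb from the 5′ end of the longest listed transcript, positive into the gene; blue is WT and orange KO, with circles for replicate 1 and squares for replicate 2. Some regions are higher and others lower in KO, and the summed signal differs by a log2 fold change of 0.03.

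With reads summed per gene, 0 of 63 guidance genes were called, against 0.117% of all genes with regions (16 of 13639), and 6 had an unadjusted p under 0.05, against 7.68% of all. Slit3, a Slit with 0 to 5 RNA reads in a library, was at 173 and 216 CPM in WT and 243 and 255 CPM in KO over 11 regions, a log2 fold change of 0.36 ± 0.11 (adjusted p = 0.278, edgeR). Leaving out WT 2 gave Slit3 0.53, leaving out KO 1 gave 0.40 and leaving out KO 2 gave 0.33, each with a lone library in a group. Slit3 no longer had the smallest p without WT 1 (Plxnb1 had it), KO 1 (Robo2) or KO 2 (Sema3f). With DESeq2, and with only regions within 3 kb of a start, Sema3f had it. With the deposited library totals Slit3 had 0.38 (adjusted p = 0.665, edgeR), and DESeq2 gave 0.36 without calling it. Sema3f followed with 106 and 99.5 CPM in WT and 61.1 and 77.2 CPM in KO (-0.58 ± 0.17, adjusted p = 0.291, edgeR), and Robo2 with 86.4 and 84.0 CPM in WT and 103 and 128 CPM in KO (0.44 ± 0.16, adjusted p = 0.446, edgeR). Their RNA log2 fold changes were 0.28 for Sema3f and -0.27 for Robo2, opposite in sign to the CUT&Tag values. Dcc, at 40.6 and 39.9 CPM in WT and 53.7 and 53.9 CPM in KO over 4 regions, had 0.42 ± 0.23 in CUT&Tag beside 0.63 in RNA, neither past the test. Across the 57 guidance genes measured in both assays, the Spearman correlation of the 2 log2 fold changes was 0.118, given as a description.

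For Slit3, whose summed signal had the smallest p in the main edgeR fit, the 250 bases before the RefSeq start are shown. Its RNA was near the floor while 11 regions carried signal. The window is chr11:35121206-35121455 (GRCm38.p6, plus strand), with 35 CpG and 6 GC boxes in capitals, overlapping matches counted.
Slit3: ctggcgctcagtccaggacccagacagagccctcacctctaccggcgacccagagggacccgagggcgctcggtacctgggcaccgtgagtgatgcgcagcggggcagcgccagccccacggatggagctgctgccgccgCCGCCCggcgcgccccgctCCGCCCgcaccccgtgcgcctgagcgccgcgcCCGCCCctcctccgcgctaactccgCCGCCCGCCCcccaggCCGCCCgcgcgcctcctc
RefSeq positions here are on GRCm38.p6 and the CUT&Tag regions on GRCm39, so the windows were not overlapped with regions. By the authors' annotation, Slit3, Nrp2, Nrp1 and Ephb2 each had 0 regions within 1 kb of an annotated start.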

How the data were processed

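The expected counts per gene are the authors', deposited unscaled for 57180 genes with gene lengths; HISAT2, StringTie and GRCm39 are named, without versions, per the submitters' processing notes. The sources used here name no counting tool, strand setting, annotation release, peak caller or antibody. CUT&Tag files hold the authors' whole-number counts per region merged over 4 libraries, with RPM that, per the file headers and values, divide the count plus 1 by a library total. The log2 fold changes, p-values and q-values deposited for regions are also the authors' own, and their test is not named. The 69 genes, the lists and the alternatives were chosen with earlier results of these data known.

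Expected counts were rounded and tested, KO against WT, in edgeR 4.0.16 (R 4.3.3; glmQLFit, robust; TMM; filterByExpr, minimum count 10; Benjamini-Hochberg, 0.05), which kept 15298 genes with 99.9% of the counts. Region counts were tested alike, also summed per assigned gene. Standard errors are the log2 fold change divided by the square root of F. TPM were computed from counts and lengths, and CPM are TMM-scaled. Groups came from titles and genotype labels. Scripts were tested on simulated data. Alternatives were RLE, DESeq2 1.42.0, no filter, a filter of 1 CPM in 3 libraries, a replicate block, the mitochondrial class (above or below the median mitochondrial share) as a covariate, RPM library totals, a 3 kb window and each library left out. Named were Riox2, every called gene, the gene with the highest level and with the smallest p in each family, the 5 genes with the smallest region p in CUT&Tag in each direction and the called pathway genes. Others named with values (Sema3f in RNA, Sema5a, Ephb3, Unc5b, Unc5c, Sema4d, Efnb2, Efnb3, Robo2 and Dcc in CUT&Tag, genes named for their level, and marker genes) were chosen after their values were seen. RNA libraries held 19922983 to 25939348 counts and CUT&Tag libraries 2913959 to 4038765 reads in regions. In CUT&Tag both KO libraries were deeper than both WT libraries, and the bearing of depth on the results was not tested.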

Additional observations from a re-analysis of the deposited data

How the results depend on the processing

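Of 61 tested guidance genes, 2 were called in RNA (1 higher, 1 lower). DESeq2 called 4 (3 higher), with 958 of all genes in place of 525 and 13 in place of 7 in the pathway lists. The mitochondrial class as a covariate gave 10 (6 higher, 4 lower), 1695 and 24. Leaving out each library in turn gave 1 to 5 guidance genes (0 to 3 higher, 1 to 2 lower), 145 to 506 of all genes and 1 to 7 pathway genes. RLE size factors, no filter and the CPM filter moved none of these counts by over 1.5 times. For the named genes, 344 values stayed on their side of the threshold in the same direction, 29 lost and 10 gained a call, and 11 changed sign, all of them far from the threshold. With the mitochondrial class the log2 fold change of Ntn1 was -0.0831 and that of Plxnb2 -0.0385. With a library left out, Ntn1 ranged from -0.1175 to 0.1568 (negative without WT 2, KO 1 or KO 2), Plxnb2 from -0.0535 to 0.2452 (negative without WT 2), Sema6d from -0.0469 to 0.0831 (negative without WT 1 or KO 3) and Sema3a from -0.0517 to 0.175 (negative without WT 1, WT 3 or KO 3). The cause was not tested.

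With the replicate number as a block, 1 guidance gene was called, Nrp2 (adjusted p = 0.0269, edgeR), 0 higher, and 229 of all genes. Ephb2 had an adjusted p of 0.0687, and among the pathway genes Ptprd (0.0505), Cntn1 (0.0678) and Dpysl3 (0.104) were not called in this edgeR fit. Deviations of same-numbered RNA libraries correlated at 0.61, -0.52 and 0.31, and those of CUT&Tag at 0.016, so the numbers were not taken as pairs; of the 3 WT RNA libraries, WT 3 alone correlated best with its own number.

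Using CPM in place of TPM, the shares of the guidance sum in WT became 41.7% (plexins), 26.7% (semaphorins), 12.6% (netrins), 6.63% (Eph receptors), 5.46% (Robos), 2.54% (ephrins), 2.07% (neuropilins) and 1.60% (Dcc and Unc5), against 32.5%, 30.8%, 13.7%, 8.65%, 4.46%, 4.82%, 2.66% and 1.72%; the Robos then stood above the ephrins. In CUT&Tag, 0 regions were called under the 9 alternatives, and summed per gene 0 to 1 when a library was left out. Among the tested guidance genes the largest standard error of a log2 fold change was 0.45, and the smallest shift called in the main fit was 0.86. That is no detection limit, since the same fit called the pathway genes Dpysl3 at 0.47 and Cntn1 at -0.60. Shifts that are small beside their standard error may not be detectable with these libraries.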
